A study of Mus musculus with 8 samples.

Results

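The genes described here are the heat shock proteins, their J-domain, BAG and FKBP partners, and the chaperones and collagen-modifying enzymes of the endoplasmic reticulum (ER). They were chosen by a rule on gene names that uses no measured value, though it was set with earlier results of these data known. The rule covers the families Hsp90, Hspa, Hspb, Hspe1, Hsph1, Dnaja, Dnajb, Dnajc, Bag, Pdia3 to Pdia6, Calr, Hyou1, Fkbp, P4hb, P4ha, P3h and Plod. The rule found 89 of the 49782 named genes in a table of 76557 loci, and 67 of the 89 were high enough to test. Canx, Hspa8, Hspa1a, Hspd1, Serpinh1, Plod1 and Fkbp10, which the same rule names, were not analysed here, so both the main cytosolic HSP70 and the collagen chaperone Hsp47 (Serpinh1) lie outside the description.

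RNA sequencing compared mesenchymal stem cells (MSc) from the hind leg bones of 4 wildtype mice (C57Bl6/J) and 4 Has-tKO mice, in which Has1 and Has3 are deleted constitutively and Has2 by an inducible Cre. Has1, Has2 and Has3 are the synthases of hyaluronan, the long glycosaminoglycan of the extracellular matrix. Cells of both genotypes received 4-hydroxytamoxifen (2 mM as labelled) for 48 h in passages 2 and 3, so wildtype cells carry that exposure too, and both were sampled on day 7 of osteogenic differentiation. The cells grew for 4 passages before that, 1 library was made per mouse, and the labels name neither the Cre driver nor the age of the mice.

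Proteins that enter the ER are folded by Hspa5 (BiP), an HSP70, with the help of J-domain partners, the nucleotide exchange factor Hyou1, the HSP90 paralogue Hsp90b1 and the disulfide isomerases. Glycoproteins pass through a lectin cycle of calnexin and calreticulin (Calr) with Pdia3. Collagen chains need further enzymes: prolyl 4-hydroxylase (P4ha subunits with P4hb) stabilises the triple helix, P3h enzymes hydroxylate prolines at the 3-position, and Plod enzymes hydroxylate lysines that later carry cross-links. Unfolded protein in the ER raises many of the chaperones together through Atf6, Xbp1 and Atf4, whereas Hsf1 does so for the cytosolic heat shock proteins. Osteoblasts, which secrete collagen in bulk, are known for high levels of both the chaperones and the collagen enzymes.

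Levels are FPKM as deposited, that is, fragments scaled by transcript length and by library size. The depth behind them is unknown, so no counting interval can be given. A difference is the Has-tKO mean minus the wildtype mean of log2(FPKM + 1), with the standard error (SE) from limma, a linear model fitted to all 9915 tested genes, and a gene passed at a Benjamini-Hochberg adjusted p under 0.05. The library wildtype 1 stood apart, with 30.4% of its FPKM on a single locus against 14.2% to 18.6% in the others, and a size factor of 0.684 against 0.990 to 1.11. It was the lowest of the 8 libraries for 41 of the 67 tested members as deposited and the highest for 4. After scaling by the size factors it was the lowest for 18 and the highest for 27, where each of the other libraries was the highest for 2 to 12. Of the 9 collagen-folding members it was scaled the highest for 4 and the lowest for 0. Has-tKO 4 also stood apart, with the largest FPKM sum and 56.4% of it on loci without a name, against 61.5% in wildtype 1 and 45.4% to 48.7% in the other libraries. It was the lowest library for 13 members as deposited and 17 scaled, and scaled for 5 of the 9 collagen-folding members. The median difference over all tested genes was 0.16 as deposited and 0.01 after scaling, so the differences of the members are given both ways, the second called scaled. Has3, the targeted gene with a row, stayed under 1 FPKM in every library, at 0.236, 0.415, 0.466 and 0.394 in wildtype and 0.663, 0.576, 0.621 and 0.150 in Has-tKO. It was not lower in Has-tKO, and because the labels do not say which part of the gene is deleted, these values do not check the labels.

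The promoters of the members were searched for known stress elements. These elements were first described in promoters of chaperones, so their shares among the members are background and not a result. Promoters of 73 of the 89 members were found in the RefSeq promoter table of GRCm38.p6, each running from 250 bases before to 50 bases after the start. Hyou1, Plod2 and P3h2 had no promoter there, so whether they carry any of the elements below is not known. The ER stress element (ERSE), searched on both strands as CCAAT, 9 free bases and CCACG, was found in 5 of the 73 members, or 6.85%, and in 0.137% of all 27025 genes in the table. Its 6 occurrences are printed here because the 5 genes that carry it had differences of both signs in Has-tKO. Each is written in the orientation of the motif, with the fixed letters in capitals and the 9 free bases in lower case.
Calr, 162 bases before the start: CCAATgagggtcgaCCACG
Dnajc3, 105 bases before the start: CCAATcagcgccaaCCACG
Hsp90b1, 212 bases before the start: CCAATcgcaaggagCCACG
Hsp90b1, 107 bases before the start: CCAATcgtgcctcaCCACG
Hspa5, 65 bases before the start: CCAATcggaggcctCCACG
Pdia6, 98 bases before the start: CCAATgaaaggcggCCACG

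The bases before the start are printed whole for Hspa5 and Calr, the 2 ERSE carriers whose differences lay furthest apart. The Hspa5 stretch is chr2:34771840-34772089 on the plus strand and the Calr stretch chr8:84846932-84847181 on the minus strand (GRCm38.p6), with capitals again marking the ERSE letters, which in Calr lie on the opposite strand. The coordinates are those of the RefSeq table and not of GRCm39, the mouse build that the submitters' processing notes list.
Hspa5: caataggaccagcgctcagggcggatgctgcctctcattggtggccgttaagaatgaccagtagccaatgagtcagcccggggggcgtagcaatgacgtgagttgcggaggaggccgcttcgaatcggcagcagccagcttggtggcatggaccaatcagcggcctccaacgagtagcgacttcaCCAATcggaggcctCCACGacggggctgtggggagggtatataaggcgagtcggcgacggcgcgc
Calr: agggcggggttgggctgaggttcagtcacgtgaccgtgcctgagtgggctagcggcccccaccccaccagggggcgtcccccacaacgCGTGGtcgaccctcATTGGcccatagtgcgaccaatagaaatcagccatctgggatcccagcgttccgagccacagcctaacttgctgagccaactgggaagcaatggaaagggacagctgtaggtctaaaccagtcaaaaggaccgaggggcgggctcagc

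The ERSE carriers had differences of -0.28 for Calr, 0.16 for Pdia6, 0.17 for Hsp90b1, 0.31 for Dnajc3 and 0.39 for Hspa5, and none of the 5 passed the test. Scaled, the same genes stood at -0.48, -0.04, -0.03, 0.13 and 0.19. Scaling shifts abundant genes by nearly the same amount, so it could hardly alter the spread between Calr and Hspa5. A second form, ERSE-II (ATTGG, 1 free base and CCACG on either strand, so that it shares the CCACG of ERSE), was found in Dnajb11 alone among the members and in 0.0444% of all genes. A heat shock element, searched on both strands as GAA, TTC and GAA with 2 free bases between them, was found in Dnajb6, Hspe1 and Hsph1, which is 4.11% of the members against 0.662% of all genes. Their differences were 0.18, 0.12 and 0.38, and 0.06, -0.02 and 0.25 scaled. A match is a description of these letters and not of factor binding.

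No member passed the limma test as deposited, where 1.78% of all tested genes did, 1.58% as higher and 0.192% as lower. An unadjusted p under 0.05 was reached by 12 of the 67, 9 higher and 3 lower, against 16.7% of all genes, 14.4% higher and 2.3% lower. In the scaled fit 2 members passed, both lower and both collagen-modifying enzymes, Plod2 and P3h2, where 2.82% of all tested genes passed, 1.73% as higher and 1.09% as lower. At an unadjusted p under 0.05, the scaled fit had 6 members higher and 13 lower, together 19 of 67, against 10.7%, 7.77% and 18.5% of all genes. Differences were positive for 44 of the 67 members as deposited, against 73.3% of all genes, and for 30 scaled, against 51.5%. The 95% confidence interval lay within a 2-fold change of FPKM + 1 for 63 of the 67 members in both fits. For members at low FPKM the added 1 FPKM shrinks the difference, so this does not bound the fold change of their FPKM. The members' median, 0.12 as deposited and -0.03 scaled, lay within 0.04 of that of all genes, while the collagen-folding group lay at -0.25 and -0.45.

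**Figure D1:**
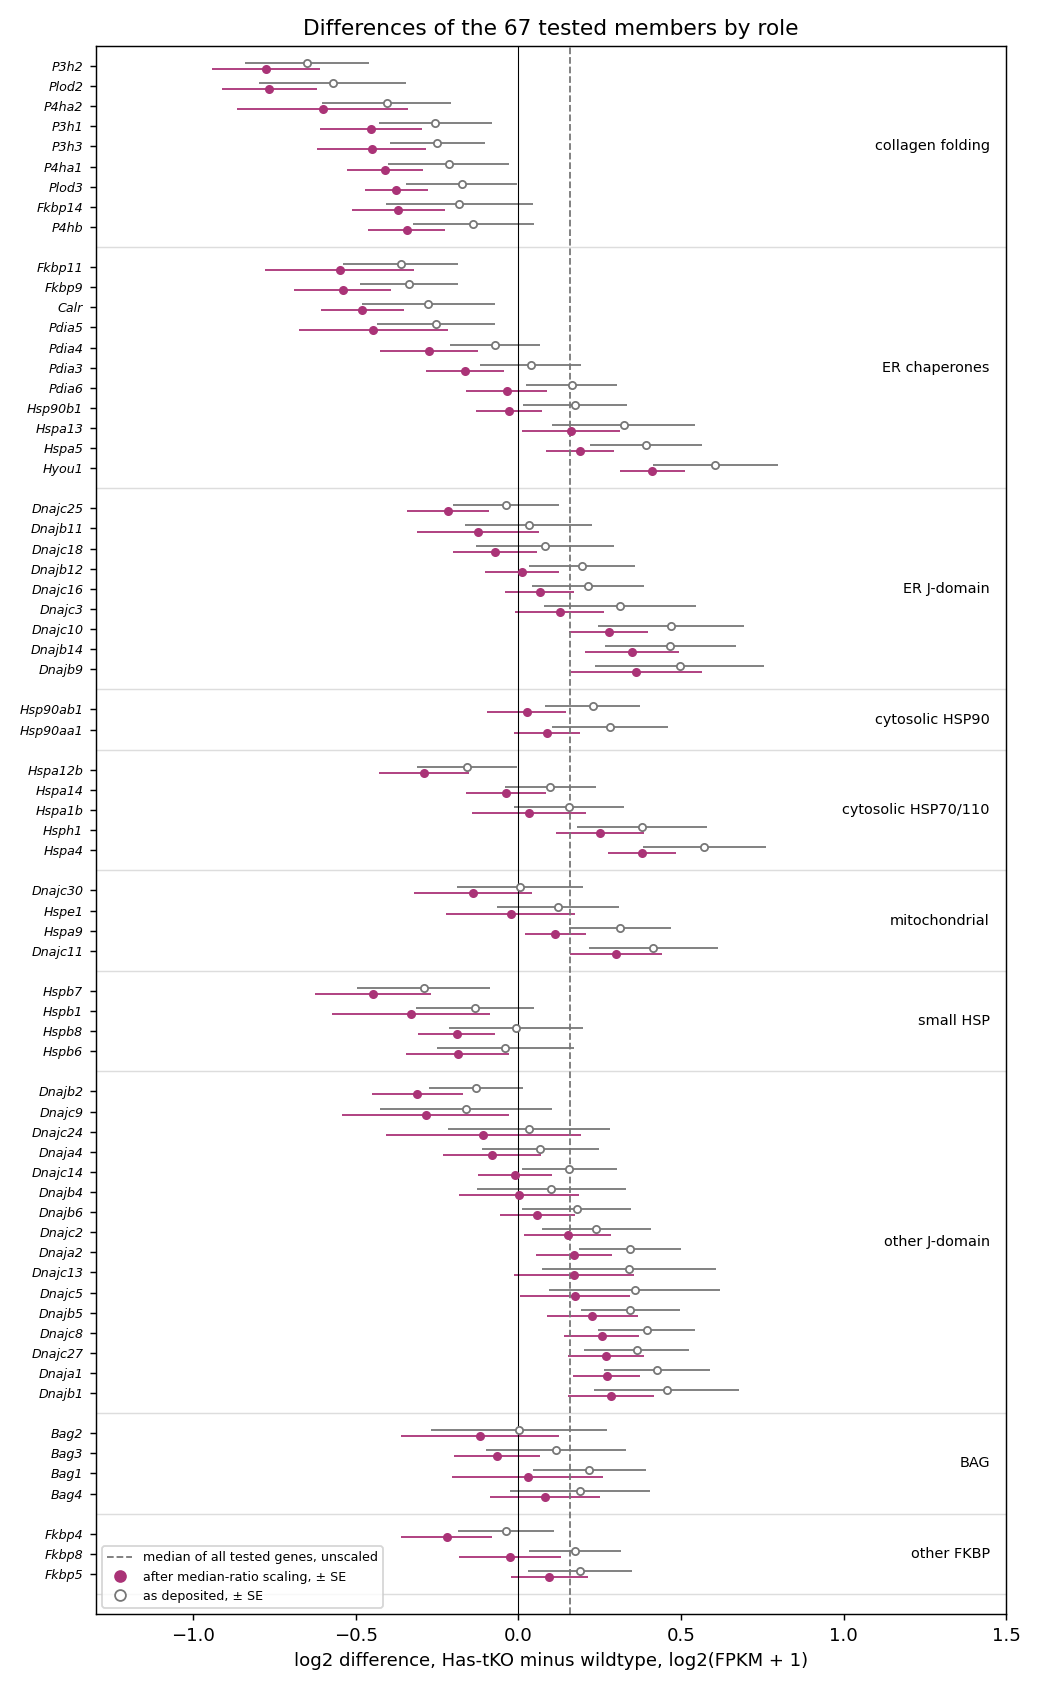
Log2 difference between Has-tKO and wildtype (horizontal axis, log2 of FPKM + 1) for the 67 tested members, grouped by role. Open circles are the values as deposited and filled circles the scaled values, bars are ± SE, and the dashed line is the unscaled median of all tested genes, 0.16. All 9 collagen-folding members lie below 0 on both scales, while the ER chaperones run from -0.36 (Fkbp11) to 0.60 (Hyou1) as deposited.

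All 9 collagen-folding members with a row were lower on average in Has-tKO, where 26.7% of all tested genes were lower as deposited and 48.5% scaled. The difference was negative for each of the 9 in all 26 fits run, apart from the fit with a filter of 5 FPKM, which did not hold P3h2. The fits share libraries, and those with no filter, summed loci or the replicate block left the median of the 9 unchanged. Their number is therefore not a measure of support. With all 8 libraries, Plod2 and P3h2 passed the test in the scaled fit and none of the 9 passed as deposited. In bulk RNA, fewer cells of a type and less RNA per cell cannot be told apart, and this holds for each difference below.

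Plod2 encodes the lysyl hydroxylase of collagen telopeptides. It was listed at 19.1, 33.8, 34.6 and 34.1 FPKM in wildtype and at 17.9, 23.1, 24.0 and 14.8 in Has-tKO. The wildtype 1 value lies among the Has-tKO values and the other wildtype values lie well above them. Scaled, the values were 28.0, 31.2, 33.1 and 34.4 against 16.6, 20.8, 21.9 and 14.3, and the genotypes did not overlap. Plod2 fell by 0.77 on the scaled log2 scale (SE 0.15, limma adjusted p = 0.0310). As deposited the mean was 30.4 ± 7.53 in wildtype and 20.0 ± 4.33 in Has-tKO (SD, n = 4 each), a difference of -0.57 (SE 0.23, limma adjusted p = 0.223). With wildtype 1 left out, the unscaled difference was -0.77 with a limma adjusted p of 0.0342. In the scaled fit the call was lost when wildtype 2 was left out (difference -0.77, limma adjusted p = 0.0884) or wildtype 4 (-0.73, adjusted p = 0.118). It was also lost when Has-tKO 1 was left out (-0.72, adjusted p = 0.119) or Has-tKO 4 (-0.65, adjusted p = 0.0673).

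P3h2, a prolyl 3-hydroxylase known from basement membrane collagens, was low in both genotypes. It was listed at 1.93, 2.26, 2.97 and 2.12 FPKM in wildtype and at 0.907, 1.60, 1.46 and 0.599 in Has-tKO. Every wildtype value lay above every Has-tKO value, also before scaling. P3h2 fell by 0.78 on the scaled log2 scale (SE 0.17, limma adjusted p = 0.0428), against a difference of -0.65 as deposited (SE 0.19, limma adjusted p = 0.104). The scaled call was lost when any of the 8 libraries was left out (limma adjusted p from 0.0526 to 0.149). At this level the added 1 FPKM shrinks the difference, which was -1.03 as deposited with 0.1 added in its place.

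The other prolyl 3-hydroxylases were more abundant. P3h3 was listed at 74.8, 76.2, 68.5 and 78.0 FPKM in wildtype and at 55.1, 61.9, 69.0 and 64.2 in Has-tKO, where only Has-tKO 3 reached the lowest wildtype library. P3h1, known for its complex that modifies type I collagen, stood at 26.9, 34.6, 26.8 and 37.1 against 21.7, 26.2, 30.5 and 25.5, with overlap. Their differences were -0.25 and -0.26 (SE 0.15 and 0.17) as deposited and -0.45 for both when scaled, and neither passed the test. Scaled, wildtype 1 stood at 109 for P3h3, against 65.4 to 78.8 in the other wildtype libraries.

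Prolyl 4-hydroxylase has a shared subunit, P4hb, which was the highest of all tested members. P4hb was listed at 194, 322, 306 and 336 FPKM in wildtype and at 263.3, 247, 269 and 249 in Has-tKO. Wildtype 1 is the lowest and the other wildtype libraries are the highest, so the genotypes overlapped as deposited and did not overlap scaled, with differences of -0.14 (SE 0.19) and -0.34 (SE 0.12, limma adjusted p = 0.160). The catalytic subunit P4ha1 stood at 17.7, 26.5, 26.2 and 30.6 against 23.4, 20.0, 23.0 and 18.8. The catalytic subunit P4ha2 stood at 26.5, 17.7, 16.1 and 22.9 against 16.5, 13.6, 18.7 and 12.5. Their differences were -0.21 and -0.41 as deposited (limma adjusted p = 0.584 and 0.327) and -0.41 and -0.60 scaled (limma adjusted p = 0.0976 and 0.258). Wildtype 1 was the lowest of the 8 libraries for P4ha1 and the highest for P4ha2. Scaled, its P4ha2 value was 38.7, against 15.3 to 23.1 in the other wildtype libraries.

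Plod3, which also transfers glucose to collagen hydroxylysines, was listed at 44.2, 65.3, 66.5 and 62.5 FPKM in wildtype and at 51.9, 55.0, 55.4 and 46.5 in Has-tKO. Scaled, wildtype lay between 60.3 and 64.6 and Has-tKO between 44.8 and 50.7, a difference of -0.38 (SE 0.10, limma adjusted p = 0.0752) against -0.17 as deposited (SE 0.17). Fkbp14, a peptidyl-prolyl isomerase that acts on collagen, stood at 14.4 ± 4.00 and 12.3 ± 2.56 FPKM (SD, n = 4 each), with overlap on both scales. Its difference was -0.18 (SE 0.23) as deposited and -0.37 (SE 0.14, limma adjusted p = 0.211) scaled. Scaled, 6 of the 9 collagen-folding members did not overlap between the genotypes and were lower in Has-tKO (P3h2, P3h3, P4ha1, P4hb, Plod2 and Plod3), against 5.76% of all tested genes. As deposited only P3h2 did, against 1.53% of all genes.

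**Figure D2:**
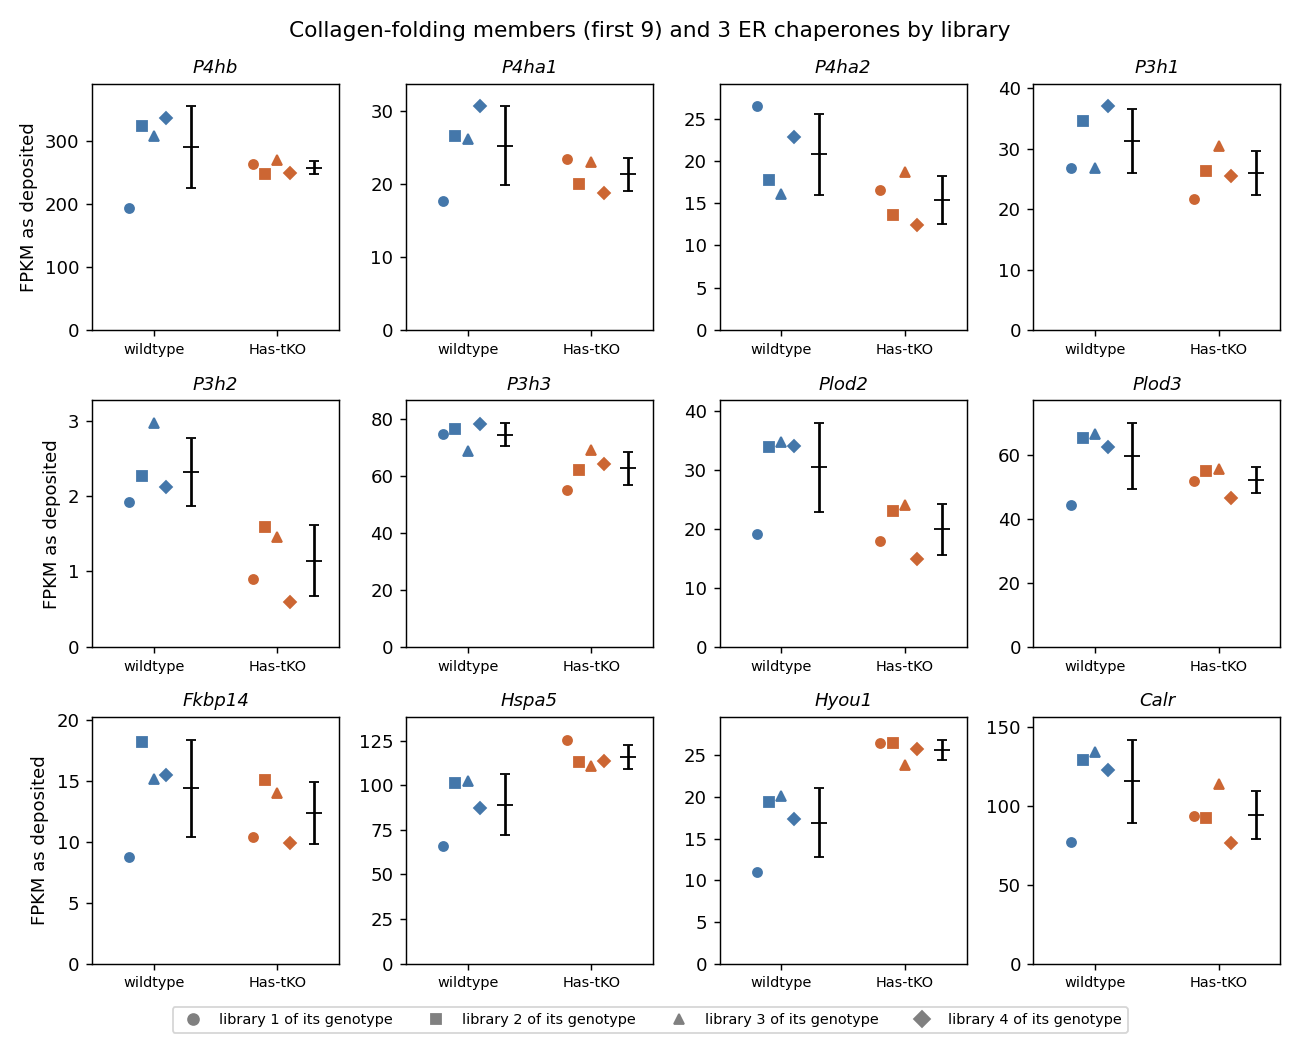
FPKM as deposited in each library for the 9 collagen-folding members and for Hspa5, Hyou1 and Calr, with wildtype in blue and Has-tKO in orange. Marker shapes number the libraries within a genotype and pair none of them, and the bars are mean ± SD (n = 4). In most panels wildtype 1 (circle) lies below the other wildtype libraries, as at 19.1 against 33.8 to 34.6 for Plod2. For Hyou1 the 4 Has-tKO libraries (23.8 to 26.5) lie above the 4 wildtype libraries (10.9 to 20.0).

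The general ER chaperones went in both directions and none of the 11 tested passed. Their median difference was 0.04 as deposited and -0.17 scaled. Hyou1, the exchange factor of BiP, was listed at 10.9, 19.3, 20.0 and 17.3 FPKM in wildtype and at 26.5, 26.5, 23.8 and 25.7 in Has-tKO. All Has-tKO libraries lay above all wildtype libraries. The difference was 0.60 (SE 0.19, limma adjusted p = 0.131) as deposited and 0.41 (SE 0.10, adjusted p = 0.0641) scaled. With wildtype 1 left out, Hyou1 rose by 0.42 (limma adjusted p = 0.0485) in the unscaled fit, the only one of the 26 fits in which it passed.

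Hspa5 (BiP), the HSP70 of the ER, was listed at 65.9, 101, 102 and 87.0 FPKM in wildtype and at 126, 113, 111 and 113 in Has-tKO. The highest wildtype library lay below the lowest Has-tKO library. The difference was 0.39 (SE 0.17, limma adjusted p = 0.272) as deposited and 0.19 (SE 0.11, adjusted p = 0.377) scaled. Hspa13, another ER HSP70, stood at 4.32 ± 1.24 and 5.60 ± 1.34 FPKM (SD, n = 4 each), with overlap and a difference of 0.32 (SE 0.22), or 0.16 scaled. Hsp90b1 (Grp94), the HSP90 of the ER, stood at 40.7, 55.4, 56.4 and 57.2 against 61.4, 58.1, 60.7 and 54.8, a difference of 0.17 (SE 0.16, limma adjusted p = 0.610) that was -0.03 when scaled.

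Calr, the soluble lectin chaperone, was listed at 76.8, 129, 134 and 122 FPKM in wildtype and at 93.6, 92.2, 114 and 76.2 in Has-tKO. Apart from wildtype 1, every wildtype library lay above every Has-tKO library. The difference was -0.28 (SE 0.21, limma adjusted p = 0.514) as deposited and -0.48 (SE 0.13, adjusted p = 0.0841) scaled, where the genotypes did not overlap. Fkbp9, an ER isomerase of the FKBP family, was listed at 126, 152, 127 and 141 against 93.3, 116, 116 and 106, without overlap on either scale. Its difference was -0.34 (SE 0.15, limma adjusted p = 0.284) and -0.54 (SE 0.15, adjusted p = 0.0923) scaled. Fkbp11, another ER FKBP, stood at 10.5 ± 1.89 and 7.93 ± 1.25 FPKM (SD, n = 4 each), with overlapping genotypes and a difference of -0.36 (SE 0.18), or -0.55 (SE 0.23) scaled.

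The ER disulfide isomerases Pdia3 to Pdia6 had differences on both sides of 0 as deposited, and all 4 were below 0 scaled. P4hb is described above with the collagen-folding members. Pdia3, the partner of calreticulin, stood at 89.2 ± 11.4 FPKM in wildtype and 91.3 ± 7.45 in Has-tKO, a difference of 0.04 (95% confidence interval -0.30 to 0.38) and of -0.17 (-0.43 to 0.10) scaled. Pdia4 stood at 72.8 ± 2.59 and 69.3 ± 4.25 (difference -0.07, and -0.28 scaled). Pdia6 stood at 29.5 ± 1.95 and 33.1 ± 1.19 (difference 0.16, and -0.04 scaled). Pdia5 stood at 12.3 ± 2.19 and 10.2 ± 1.87 (difference -0.25, and -0.45 scaled). For all 4 the limma adjusted p was above 0.3 on both scales, and the values are mean ± SD with n = 4.

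Within a library, the ratio of 2 genes does not depend on the size factor, and it shows how the members stood to Hspa5. These ratios were chosen after the values were seen and are given as a description. Calr stood to Hspa5 at 1.17, 1.27, 1.31 and 1.41 in wildtype and at 0.745, 0.815, 1.03 and 0.673 in Has-tKO. The wildtype libraries, wildtype 1 included, all had more Calr than Hspa5 and 3 of the 4 Has-tKO libraries had less. P4hb stood to Hspa5 at 3.24 ± 0.423 and 2.23 ± 0.141, and Plod2 at 0.339 ± 0.0416 and 0.174 ± 0.0430 (SD, n = 4 each), neither with overlap. Hyou1 went the other way, at 0.188 ± 0.0150 and 0.222 ± 0.0107, and Hsp90b1 overlapped, at 0.594 ± 0.0534 and 0.508 ± 0.0298. The ratio to Hspa5 was lower in Has-tKO without overlap for 6 of the 9 collagen-folding members and for 11 of the 66 members other than Hspa5, against 11.7% of the 9914 other tested genes. It was higher without overlap for Hyou1 and Hspa4, against 3.27% of all genes. With Hyou1 as the denominator, 32 of 66 members were lower without overlap and none was higher, against 31.4% and 1.23% of all genes. A ratio shows unequal change and not which of the 2 genes changed.

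**Figure D3:**
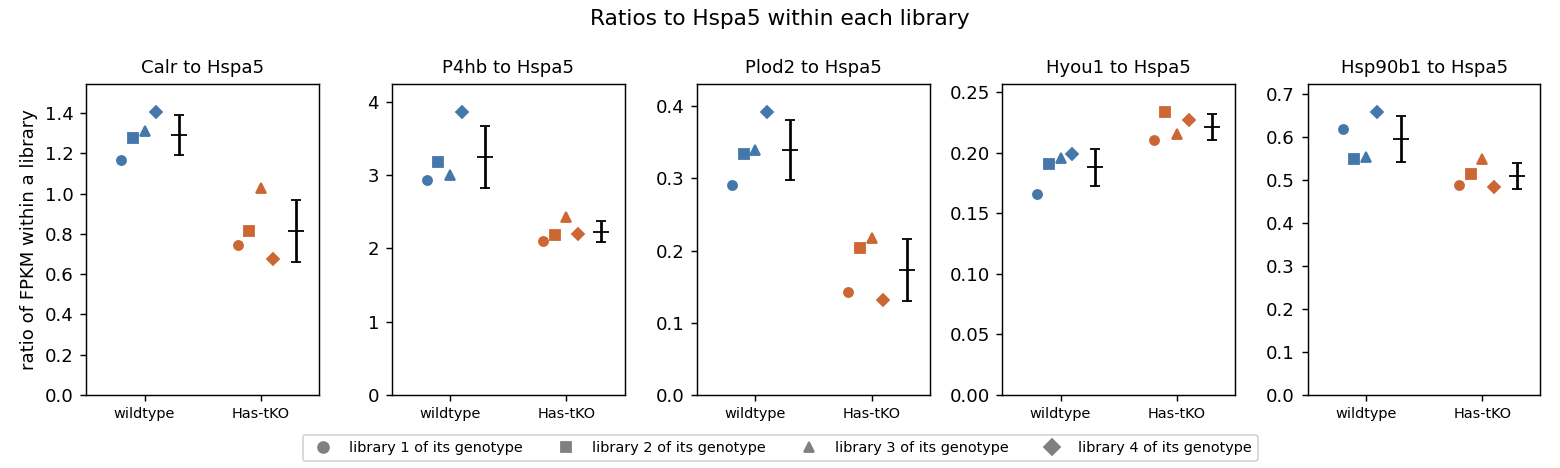
Ratio of the FPKM of 5 members to that of Hspa5 within each library, wildtype in blue and Has-tKO in orange, with mean ± SD (n = 4) beside the points and marker shapes numbering libraries within a genotype. Wildtype 1 (circle) is the lowest wildtype library for Calr, P4hb, Plod2 and Hyou1, as at 0.166 against 0.191 to 0.199 for Hyou1. The genotypes do not overlap for these members but do for Hsp90b1.

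The ER group of J-domain proteins includes partners that hand substrates to Hspa5 or help to clear them. Of the 9 tested none passed, and their median was 0.21 as deposited and 0.07 scaled. Dnajc10 (ERdj5), a disulfide reductase, was listed at 9.11, 20.2, 18.3 and 18.3 FPKM in wildtype and at 22.4, 23.1, 23.4 and 20.3 in Has-tKO. Wildtype 1 is far below the rest, and the other wildtype libraries are just below Has-tKO. Its difference was 0.47 (SE 0.22, limma adjusted p = 0.320) and 0.28 scaled. Dnajb9 (ERdj4), a target of Xbp1, stood at 1.11, 3.81, 4.19 and 2.61 against 3.28, 4.92, 4.63 and 4.27, a difference of 0.50 (SE 0.26, limma adjusted p = 0.361) and of 0.36 scaled. Dnajb14 stood at 1.75 ± 0.735 and 2.69 ± 0.145 FPKM (SD, n = 4 each; difference 0.47, and 0.35 scaled). Dnajc3, an ERSE carrier that works as a BiP co-chaperone, stood at 12.2 ± 3.97 and 14.7 ± 1.68 (difference 0.31, and 0.13 scaled).

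The 16 other tested J-domain members, mostly of the cytosol, nucleus and vesicles, had a median of 0.29 as deposited and 0.16 scaled, and none passed. Dnajb1 (Hsp40), a partner of the cytosolic HSP70s, was listed at 3.31, 7.70, 7.79 and 6.91 FPKM in wildtype and at 9.19, 9.47, 8.68 and 7.94 in Has-tKO. The genotypes did not overlap, and wildtype 1 lay far below the other wildtype libraries. The difference was 0.46 (SE 0.22, limma adjusted p = 0.329) and 0.28 scaled. Dnaja1 stood at 2.12, 3.55, 3.22 and 2.66 against 4.13, 4.80, 3.86 and 3.94, also without overlap (difference 0.43, SE 0.16, limma adjusted p = 0.212, and 0.27 scaled). Dnajc8 and Dnajc27 were at 1.76 ± 0.335 and 0.928 ± 0.293 FPKM in wildtype and at 2.62 ± 0.199 and 1.46 ± 0.108 in Has-tKO, without overlap as deposited or scaled. As deposited, 13 of the 67 members were higher in Has-tKO without overlap, against 12% of all tested genes, and scaled 8 were, against 7.18%.

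Among the cytosolic HSP70 and HSP110 members, Hspa4 (Apg-2), an exchange factor, had the largest difference. It was listed at 9.92, 16.9, 17.6 and 15.8 FPKM in wildtype and at 24.3, 21.4, 20.6 and 23.4 in Has-tKO, with no overlap on either scale. The difference was 0.57 (SE 0.19, limma adjusted p = 0.146) and 0.38 (SE 0.11, adjusted p = 0.0938) scaled. Hsph1 (Hsp110), a related exchange factor, stood at 1.11, 3.04, 2.34 and 1.87 against 2.55, 3.27, 3.06 and 2.81, with overlap and a difference of 0.38 (SE 0.20), or 0.25 scaled. Hspa1b, the classical heat-inducible HSP70, was low in every library, between 0.865 and 1.85 FPKM, with means of 1.06 ± 0.187 and 1.32 ± 0.407 (SD, n = 4 each; difference 0.16, SE 0.17, and 0.03 scaled). Its coding sequence is nearly identical to that of Hspa1a, so its value is uncertain. Hspa12b, a distant HSP70 relative, stood at 1.98 ± 0.330 and 1.66 ± 0.253 (difference -0.16, and -0.29 scaled).

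The cytosolic HSP90s were among the more abundant members. Hsp90ab1, the constitutive form, was listed at 94.98, 122, 112 and 109 FPKM in wildtype and at 125, 122, 138 and 127 in Has-tKO. Wildtype 2 nearly reached the lowest Has-tKO library, and scaled the genotypes overlapped. The difference was 0.23 (SE 0.15, limma adjusted p = 0.454) and 0.02 scaled. Hsp90aa1, the stress-inducible form, stood at 15.5 ± 3.33 and 18.7 ± 1.52 FPKM (SD, n = 4 each; difference 0.28, and 0.09 scaled).

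In mitochondria, Hspa9 (mortalin) was listed at 19.1, 26.6, 26.8 and 23.9 FPKM in wildtype and at 29.2, 30.3, 31.1 and 29.2 in Has-tKO, without overlap as deposited and with overlap scaled. Its difference was 0.31 (SE 0.16, limma adjusted p = 0.343) and 0.11 scaled. Hspe1 (Hsp10), the partner of Hsp60, stood at 2.05 ± 0.631 and 2.28 ± 0.395 (difference 0.12, and -0.02 scaled), and Dnajc11 at 1.60 ± 0.631 and 2.39 ± 0.323 (difference 0.41, and 0.30 scaled). None of the 4 tested mitochondrial members passed.

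The small heat shock proteins, which hold unfolded proteins without ATP, had a negative difference for all 4 tested members. Among all genes, 26.7% had one as deposited and 48.5% scaled. The 4 differences ran from -0.29 to -0.007 as deposited and from -0.45 to -0.19 scaled, so some lay near 0. Their median was -0.09 as deposited and -0.26 scaled, and none passed. Hspb1 (Hsp27) was listed at 26.3, 18.6, 19.4 and 20.5 FPKM in wildtype and at 18.5, 15.3, 24.3 and 19.1 in Has-tKO. The genotypes overlapped throughout, and the difference was -0.13 (SE 0.18, limma adjusted p = 0.740), or -0.33 (SE 0.24) scaled. Hspb7 stood at 3.98 ± 0.903 and 3.12 ± 1.09 FPKM, and Hspb6 at 3.53 ± 0.998 and 3.37 ± 0.885 (SD, n = 4 each). With a single library left out, the Hspb6 difference ran from -0.32 to 0.06 over both scales.

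The BAG proteins, exchange factors for HSP70, and the FKBPs outside the ER had differences between -0.04 (Fkbp4) and 0.22 (Bag1) as deposited, and scaled between -0.22 (Fkbp4) and 0.10 (Fkbp5). Bag3, known for autophagy of misfolded proteins with Hspb8, stood at 9.10 ± 2.46 FPKM in wildtype and 9.77 ± 1.87 in Has-tKO, a difference of 0.11 that was -0.07 scaled. Bag1 stood at 9.06 ± 1.61 and 10.7 ± 1.72, and Bag4 at 1.56 ± 0.601 and 1.89 ± 0.598. Fkbp8, an FKBP of the mitochondrial surface, stood at 28.3 ± 1.41 and 32.1 ± 1.70 (difference 0.17, and -0.03 scaled). Fkbp5, a glucocorticoid-responsive cofactor of Hsp90, was at 0.940 ± 0.294 and 1.20 ± 0.126, and Fkbp4 at 8.25 ± 0.871 and 8.00 ± 0.600. All values are SD with n = 4, and the limma adjusted p was above 0.4 for each on both scales.

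The 22 members that were not tested contribute no difference. Dnajb8, Dnajc6 and Fkbp6 were listed at 0 in all libraries, 11 had values above 0 but stayed under 1 FPKM in all (some of them at 0 in part of the libraries), and 8 reached 1 FPKM in 1 to 3 libraries. Their highest value was 1.96 FPKM (Fkbp2 in Has-tKO 4).

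Genes that act with these chaperones were counted from lists of pathway members. Of 27 tested genes of the unfolded protein response, 22 had a positive difference as deposited and 11 scaled, against 73.3% and 51.5% of all genes, and none passed. The one with the smallest p as deposited was Sdf2l1, an Hspa5 cofactor, at 6.53 and 10.8 FPKM on average (difference 0.66, limma adjusted p = 0.0926). Scaled, its difference was 0.47 and the genotypes overlapped. Ern1 had the smallest p in the scaled fit (difference 0.45, limma adjusted p = 0.0700, and 0.61 as deposited). Edem1 (0.58, and 0.39 scaled) and Sil1 (-0.43, and -0.62 scaled) were named after their values were seen. Ern1, Edem1 and Sil1 did not overlap between the genotypes on either scale. Among all genes, 12% were higher and 1.53% lower without overlap as deposited, and 7.18% and 5.76% scaled. Of 15 tested genes of the heat shock factor group and its co-chaperones none passed, with Hsf1 itself at 0.32 (limma adjusted p = 0.308) and 0.16 scaled. Of 16 tested partners of collagen processing and secretion none passed, with a median of -0.03 and of -0.23 scaled. Of the 16, 9 had a negative difference as deposited and 12 scaled, against 26.7% and 48.5% of all genes. The one with the smallest p as deposited was Tmem38b, an ER potassium channel needed for collagen modification, at 1.85 and 3.61 FPKM on average (difference 0.68, limma adjusted p = 0.0575), or 0.52 scaled, where the genotypes overlapped. Col11a1, a chain of type XI collagen, Sparc, a collagen-binding matrix protein, and Pcolce, the enhancer of procollagen C-proteinase, stood at -0.61, -0.50 and -0.39 (-0.81, -0.70 and -0.59 scaled), without overlap on either scale. Mia2, which serves the export of collagen from the ER, stood at 0.41 (0.30 scaled), also without overlap. Col11a1, Sparc, Pcolce and Mia2 were chosen after their values were seen, and the shares of all genes without overlap given above apply to them too. Of 13 tested hypoxia-responsive genes, a class to which the P4ha genes and Plod2 also belong, 9 had a negative difference as deposited and 12 scaled. Among all genes, 26.7% and 48.5% did. Car9 fell by 1.53 as deposited (limma adjusted p = 0.0462), with a scaled difference of -1.72 (adjusted p = 0.0723). Slc2a1, named after its values were seen, had the largest positive difference, 0.50 (limma adjusted p = 0.118) and 0.30 scaled. Its genotypes overlapped only when scaled. The median of the 13 was -0.12, and -0.30 scaled.

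Markers of cell types moved with genotype beside these differences. Of 16 tested myeloid markers all had a positive difference, and 3 passed as deposited (Cx3cr1, Spi1 and Cd52). In the scaled fit Cx3cr1, Cybb and Clec7a passed, and Spi1 and Cd52 did not (limma adjusted p = 0.0535 and 0.112). Their summed level ran from 390.0 to 667 FPKM in wildtype and from 663 to 1069 in Has-tKO. Of 7 tested osteoblast markers 6 had a negative difference, and Alpl, Ibsp and Smpd3 fell in the scaled fit (limma adjusted p = 0.0154, 0.0177 and 0.0210). As deposited none of the 7 passed (0.0826, 0.0718 and 0.0580 for the same genes). Their summed levels were 264.3 to 561 FPKM in wildtype and 182 to 274 in Has-tKO. Of 8 tested chondrocyte markers all were lower on average and Col10a1, Fgfr3 and Col9a1 passed in both fits and Sox9 only scaled (limma adjusted p = 0.0118, and 0.0966 as deposited), with summed levels of 188 to 315 FPKM in wildtype and 161 to 232 in Has-tKO. Of 7 endothelial markers with a row 5 stayed under 1 FPKM in every library, and of 7 adipocyte markers 3 did. No marker with a row was at 0 in all libraries, and the osteoblast markers Sp7, Bglap, Spp1 and Col1a1 were not analysed here. The part of these cell types in the differences of the collagen-folding members and of Hyou1 was not tested.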

How the data were processed

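The authors deposited 1 table of FPKM values with a column for each of the 8 libraries, 4 wildtype and 4 Has-tKO. The submitters' processing notes name HISAT2, StringTie, fastp, bcl2fastq and DESeq2 and the builds hg38 and GRCm39, without versions or options. The libraries were made from 100 ng RNA after depletion of ribosomal RNA, per the labels' protocols, by Nextera tagmentation, which does not mark strand, so antisense and overlapping genes within a locus cannot be told apart. The 26689 loci without a name (45.4% to 61.5% of each column's sum) were left out. Where a name stood on several loci (67 names), the locus with the highest mean was used.

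Genes that reached 1 FPKM in 4 or more of the libraries were tested with limma 3.58.1 in R 4.3.3 (log2(FPKM + 1), genotype as the only term, intensity trend, two-sided, Benjamini-Hochberg adjustment over all 9915 genes). The scaled fit divides each library by its median-ratio size factor from 7435 genes at 1 FPKM or more in every library. The code was tested on simulated data. The alternatives were scaling, a pseudocount of 0.1, no filter, a filter of 5 FPKM, summed loci, each library left out, and the replicate number as a block. Sequences came from the RefSeq promoter table of GRCm38.p6 and were matched by symbol. The members and gene lists were chosen with earlier results of these data known. Named members are those that passed, the 3 with the smallest p in each role group and a list of well-known genes; the other collagen-folding and ER members, Dnajc3 and Dnajb6 were named because the role group or the promoter search includes them. The group of other J-domain members was set apart after the table was read.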

Additional observations from a re-analysis of the deposited data

Results flagged for a closer look

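In 6 of 94 checks of a named member within a genotype, 1 library lay far from the other 3 by Dixon's test, and chance alone is expected to give about 1 in 20. The library wildtype 1 was the low one in 4 of the 6. It had 9.11 FPKM of Dnajc10 (others 18.3 to 20.2), 40.7 of Hsp90b1 (55.4 to 57.2), 2.05 of Hspb6 (3.88 to 4.22) and 19.1 of Plod2 (33.8 to 34.6). Has-tKO 3 was the remaining one, with 29.5 FPKM of Fkbp8 (others 32.5 to 33.1) and 4.73 of Hspb7 (2.35 to 2.76).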

How the results depend on the processing

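As deposited, 176 genes and 0 members passed. The count over all genes was 280 with scaling, 111 with a pseudocount of 0.1, 2 with no filter, and 10 to 349 with a library left out (20 to 348 scaled). Leaving out both wildtype 1 and Has-tKO 4, the libraries with the largest shares on unnamed loci, an alternative chosen after seeing the data, gave 358 as deposited. Among the members, and likewise among the collagen-folding members, 2 passed with scaling and 1 with both libraries left out, as deposited or scaled. With 1 library left out, 0 to 2 members passed as deposited and 0 to 1 scaled, of which 0 to 1 and 0 to 1 were collagen-folding. The cause was not tested.

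The replicate block gave 147 calls over all genes and 0 among the members as deposited, and 40 and 0 scaled, the latter also for the collagen-folding members. Same-numbered libraries correlated at -0.08, 0.31, -0.12 and -0.06 in their deviations from the group means. The labels state no pairing, and these 4 correlations are too few to exclude a shared litter, batch or day. Of the 4 wildtype libraries 1 correlated best with its own number.

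Scaling turned the log2 difference of Bag3 to -0.067, of Fkbp8 to -0.025, of Hsp90b1 to -0.029, of Hspe1 to -0.024, of Pdia3 to -0.165 and of Pdia6 to -0.036. Scaled and without both libraries, Fkbp8 stood at 0.095, Hsp90b1 at 0.014 and Pdia6 at 0.037. With a library left out as deposited, Bag3 ran from -0.079 to 0.219, Fkbp4 from -0.088 to 0.011, Hspb6 from -0.220 to 0.061, Hspe1 from -0.030 to 0.207 and Pdia3 from -0.045 to 0.096. Scaled, Bag1 ran from -0.105 to 0.264, Bag4 from -0.038 to 0.159, Fkbp8 from -0.087 to 0.129, Hsp90ab1 from -0.018 to 0.105, Hsp90b1 from -0.068 to 1.59e-05, Hspa1b from -0.066 to 0.155, Hspe1 from -0.221 to 0.078 and Pdia6 from -0.093 to 0.064. No other member given with values changed sign. Depth is unknown, so low members such as P3h2, Hspa1b and Fkbp5 have no counting error.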
